A study of Homo sapiens with 2 samples.

Results

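The genes described here are 36 nucleolar factors of ribosome biogenesis and RNA polymerase I (Pol I) transcription, chosen by gene symbol from known function, with earlier results of these data known. All 36 symbols had a row among the 62702 rows of the table. RNA was measured in K562 cells, an established human leukemia line with features of red cell precursors. The cells carried dCas9-KRAB, a nuclease-dead Cas9 joined to a repressor domain that lowers transcription at the promoter a guide RNA names, and both libraries share the genotype label E50_dCas9-KRAB and the title label WT. The labels do not explain E50. One library came from cells with a control guide (sgRNA_Control) and the other from cells with a guide against SMC1A, which encodes a core subunit of the cohesin ring (sgRNA_SMC1A). Cells received the guide by lentivirus, were under 1 µg/ml puromycin from day 2 to day 6 and were sorted for high guide-vector fluorescence, and 1 µg of RNA went into each poly(A) library. The labels name 1 guide per library and no clone.

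Ribosomal RNA is made in the nucleolus. Pol I, helped by UBTF, the promoter factor SL1 and RRN3, transcribes a long precursor. Small nucleolar ribonucleoproteins (snoRNPs) then modify that precursor, with box C/D particles methylating riboses and box H/ACA particles forming pseudouridine. Assembly factors fold, cut and export the small and large subunits. Many of these genes are known targets of the transcription factor MYC, and fast-growing leukemia cells such as K562 keep the pathway active.

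Each guide had 1 library, so no test could be made. Every difference sets 2 libraries side by side, and its 95% interval reflects counting error alone. Levels are CPM, that is, counts per 1000000 of the library size after TMM scaling, and the log2 ratio is the SMC1A guide over the control guide. A gene counts as measured with at least 100 counts over both libraries, which 11321 genes had. The libraries held 18349209 counts (control guide) and 16864207 (SMC1A guide). The guide's target SMC1A had 8077 counts in the control library and 288 in its own, a log2 ratio of -4.81. All 10 markers fixed for K562 cells were measured, from HBG2 at a log2 ratio of -1.68 to HBE1 at 0.62, and 4 of them were at least 2-fold lower (HBG2, HBZ, HBG1 and TFRC). The 8 markers of other blood cells summed to 291 and 394 counts, of which CD3D took 255 and 324, and the B cell marker MS4A1 was at 0 in both libraries. The part of these marker differences in the results below was not tested.

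All 36 genes were lower with the guide against SMC1A. Their log2 ratios ran from -1.04 for RRP9 to -0.32 for RRN3, with a median of -0.67 (1.59-fold lower), against a median of -0.05 over all measured genes. The whole counting interval lay below 0 for 36 of 36 genes, where 38.7% of all measured genes had such an interval and 54.3% had a ratio below 0. At least 1.5-fold lower were 24 of 36, against 9.06% of all measured genes, and 0 of 36 were at least 1.5-fold higher, against 12.2%. At least 2-fold lower were 2 of 36 (RRP9 and MYBBP1A), against 2.32%, and 0 were at least 2-fold higher, against 5.11%. Just inside the 1.5-fold limit stood NOP14 at -0.59 and just outside it TAF1D and NAT10, both at -0.56. The 36 genes all lay within the lowest 25% of measured genes by ratio, 26 of them within the lowest 10% and 14 within the lowest 5%. Each of the 36 was thus lower by a moderate amount, and few passed 2-fold.

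The size depended on the scaling. When libraries were scaled by their totals, the median of all measured genes moved up by 0.13, and 15 of the 36 were at least 1.5-fold lower, against 5.65% of all measured genes (16.5% were higher). Highly expressed genes also had lower ratios in general. The measured genes were split into 5 equal groups by level, and 23 of the 36 lay in the highest, where the median of all genes was -0.19 and that of the 23 was -0.65. A further 12 lay in the fourth group, with medians of -0.10 and -0.68. When the trend with level was removed, the median of the 36 was -0.49 and 10 were at least 1.5-fold lower, against 8.58% of all measured genes. All 36 ratios stayed below 0 under both settings.

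**Figure D1:**
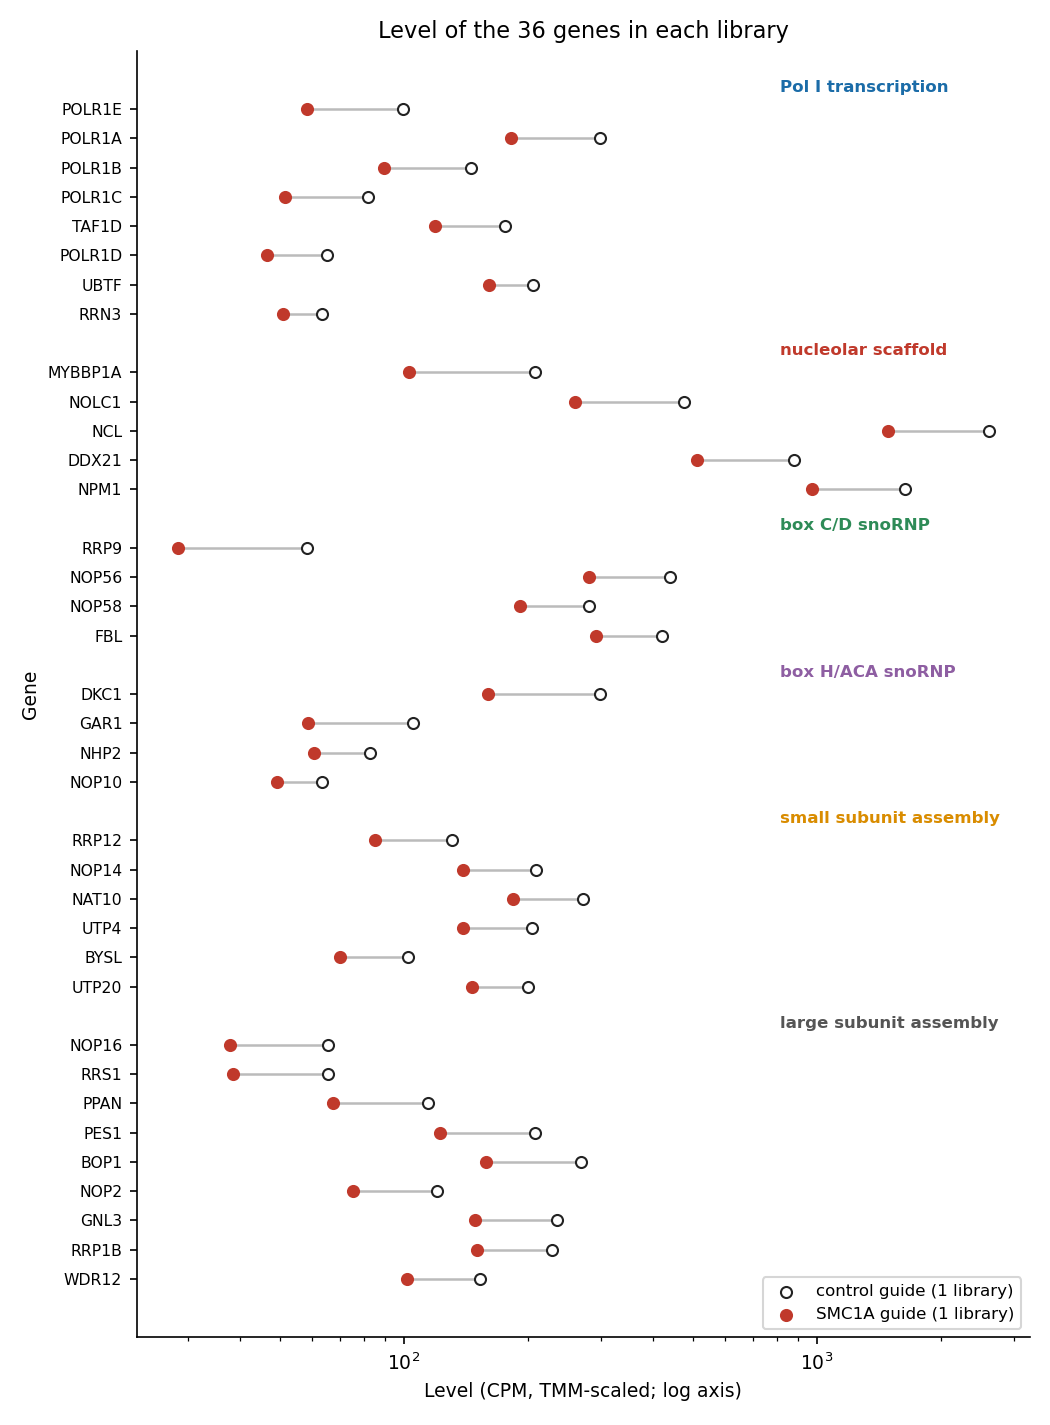
Level of each of the 36 genes in the control library (open circles) and the SMC1A library (filled circles), in CPM on a log axis, grouped by role. The filled circle lies left of the open circle in all 36 rows, from NCL at 2609 and 1481 CPM to RRP9 at 58.1 and 28.3 CPM.

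The 36 genes took 1.08% of all counts in the control library (197624 counts) and 0.718% in the SMC1A library (121082 counts). NCL and NPM1 held 37.7% and 35.7% of those counts. The summed level of the other 34 genes was 7019 and 4411 CPM, a log2 ratio of -0.67 (interval -0.68 to -0.66), so the summed difference was present without the most abundant members too. Levels were also divided by the length of the longest annotated mRNA, which compares genes only roughly, since the expressed form can be shorter. By this measure NPM1 was highest (931 and 554 CPM per kilobase), followed by NCL (647 and 367) and FBL (363 and 251). POLR1D (14.2 and 10.2) and RRN3 (16.8 and 13.5) were the lowest by it in the control library. Across the 36 genes the ratio had little relation to mean level (Pearson r -0.16, Spearman rho -0.08) or to mRNA length (0.09 and 0.07). These values describe genes of the same pair of libraries, which are not independent replicates. In bulk RNA, fewer cells of a type and less RNA per cell cannot be told apart, and equal RNA input gives no level per cell.

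The promoters were searched for the E-box letters CACGTG, the core sequence that MYC and MAX are known to bind. The search was chosen with the lower MYC level known, and whether that level bears on these genes was not tested. The RefSeq promoter table (GRCh38.p14) gives windows of 300 bases, 250 before the annotated start and 50 from it on, for 29 of the 36 genes. It has none for POLR1E, NOLC1, NOP58, RRP12, RRP1B, RRS1 and BOP1. The motif reads the same on both strands. It occurred in a window of 14 of 29 genes (48.3%), against 13.3% of the 8856 measured genes with a window and 8.77% of all 27305 genes of the table. Many of the genes described here are known MYC targets, so this difference cannot be read apart from how they were chosen. Of the 15 copies, 14 lay within 50 bases of the start and 8 lay wholly after it. The following 30-base stretches show the motif, in capitals, for all 5 small subunit assembly genes with a window and for members of other roles, written 5′ to 3′ on the strand of the gene.
NAT10 (chr11:34105602-34105631, plus strand): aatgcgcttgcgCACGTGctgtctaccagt
UTP4 (chr16:69132621-69132650, plus strand): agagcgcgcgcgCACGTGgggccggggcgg
UTP20 (chr12:101280083-101280112, plus strand): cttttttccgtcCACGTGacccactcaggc
BYSL (chr6:41921515-41921544, plus strand): ttcttcagtcccCACGTGcgatccttcccg
NOP14 (chr4:2963374-2963403, minus strand): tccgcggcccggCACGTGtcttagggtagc
RRP9 (chr3:51941892-51941921, minus strand): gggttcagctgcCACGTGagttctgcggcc
FBL (chr19:39846356-39846385, minus strand): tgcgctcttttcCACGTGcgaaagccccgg
GAR1 (chr4:109815781-109815810, plus strand): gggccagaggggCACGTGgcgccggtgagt
MYBBP1A (chr17:4555340-4555369, minus strand): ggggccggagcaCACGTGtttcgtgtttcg
PES1 (chr22:30591880-30591909, minus strand): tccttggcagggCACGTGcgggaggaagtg

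DDX21, GNL3, NOP2 and NOP10 also held the motif, NOP10 with 2 copies. By role, the motif was in 5 of 5 small subunit assembly genes with a window, in 3 of 6 large subunit assembly genes, in 2 of 3 box C/D genes, in 2 of 4 box H/ACA genes, in 2 of 4 scaffold genes and in 0 of 7 Pol I transcription genes. The whole upstream window of UTP20 (chr12:101279855-101280104, GRCh38.p14, plus strand), 250 bases up to the base before the annotated start, is shown for context, with its motif in capitals near the 3′ end.
UTP20 upstream: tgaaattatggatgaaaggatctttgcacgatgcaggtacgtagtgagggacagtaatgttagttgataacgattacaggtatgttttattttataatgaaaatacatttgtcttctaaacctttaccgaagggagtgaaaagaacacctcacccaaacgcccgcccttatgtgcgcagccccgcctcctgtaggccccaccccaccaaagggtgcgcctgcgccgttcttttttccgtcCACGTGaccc

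Ratios differed little by the motif. Members with it had a median log2 ratio of -0.62 and members without it -0.67, while over all measured genes the medians were -0.12 with and -0.05 without. Among the other 90 subunit assembly genes with a window, 32.2% held it, and among 66 cytosolic ribosomal protein genes 7.58%. The related letters CACGCG, searched on both strands, were in 37.9% of the 29 genes and in 23.4% of measured genes, and in 5 of the 7 Pol I transcription genes. A match describes letters in a window and is not a measured binding site.

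Pol I transcription genes were lower to unequal degrees. The median log2 ratio of the 8 was -0.62, and 4 of 8 were at least 1.5-fold lower, against 9.06% of all measured genes. By library totals 2 of 8 were, against 5.65%, and with the trend removed 1 of 8, against 8.58%. POLR1A, the largest catalytic subunit (chromosome 2, 86020216 to 86106155 in GENCODE 29, GRCh38), was at 298.8 CPM in the control library and 181.6 in the SMC1A library, a log2 ratio of -0.72 (interval -0.78 to -0.66). POLR1B, the other large catalytic subunit, was at 145.3 and 89.5 CPM (-0.70). POLR1E, part of a subunit pair used in initiation and elongation, was at 99.4 and 58.2 CPM (-0.77). The counting intervals of these 3 subunits overlapped. POLR1C and POLR1D are assembly subunits that Pol III also uses. POLR1C was at 82.0 and 51.4 CPM (-0.67) and POLR1D at 65.2 and 46.7 CPM (-0.48, interval -0.61 to -0.35), above the interval of POLR1A.

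Of the members that act with Pol I at its promoter, UBTF and RRN3 were nearest to their control level. UBTF, which binds along ribosomal DNA, had 205.0 and 160.2 CPM (-0.36, interval -0.43 to -0.28). RRN3, which links the polymerase to the promoter complex, had 63.4 and 50.8 CPM (-0.32, interval -0.45 to -0.19). It has 5 rows named as its pseudogenes, with 166 and 123 counts beside 1112 and 896 for RRN3 itself. RRN3 also lies opposite PDXDC1 (1563 and 1925 counts, log2 ratio 0.29). What these bring to the RRN3 ratio was not tested. TAF1D, a subunit of SL1, had 175.8 and 119.0 CPM (-0.56, interval -0.64 to -0.48), and its interval overlaps that of POLR1D. Counts of 2 genes in the same library can be compared without scaling. POLR1A counts per UBTF count were 1.46 in the control library and 1.13 in the other (log2 difference -0.36, interval -0.46 to -0.27). POLR1A per POLR1B count was 2.06 and 2.03, with an interval of -0.13 to 0.09 around a log2 difference of -0.02. The difference between the catalytic subunit and UBTF was thus larger than counting error, and the one between both catalytic subunits was not.

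The 7 other genes of the Pol I machinery did not all follow. Their median was -0.28, and 2 of 7 were at least 1.5-fold lower, against 9.06% of all measured genes. These were the subunit gene POLR1G (79.1 and 44.9 CPM, -0.82) and the SL1 gene TAF1A (23.4 and 13.8 CPM, -0.75). POLR1H was at -0.50, TAF1B and POLR1F both at -0.28, and the termination factor gene TTF1 at -0.08, or 0.05 by library totals. TAF1C was higher, at 53.7 and 60.9 CPM (0.18, interval 0.05 to 0.31). Genes of SL1 therefore stood on both sides of 0, with TAF1A and TAF1D lower and TAF1C higher.

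**Figure D2:**
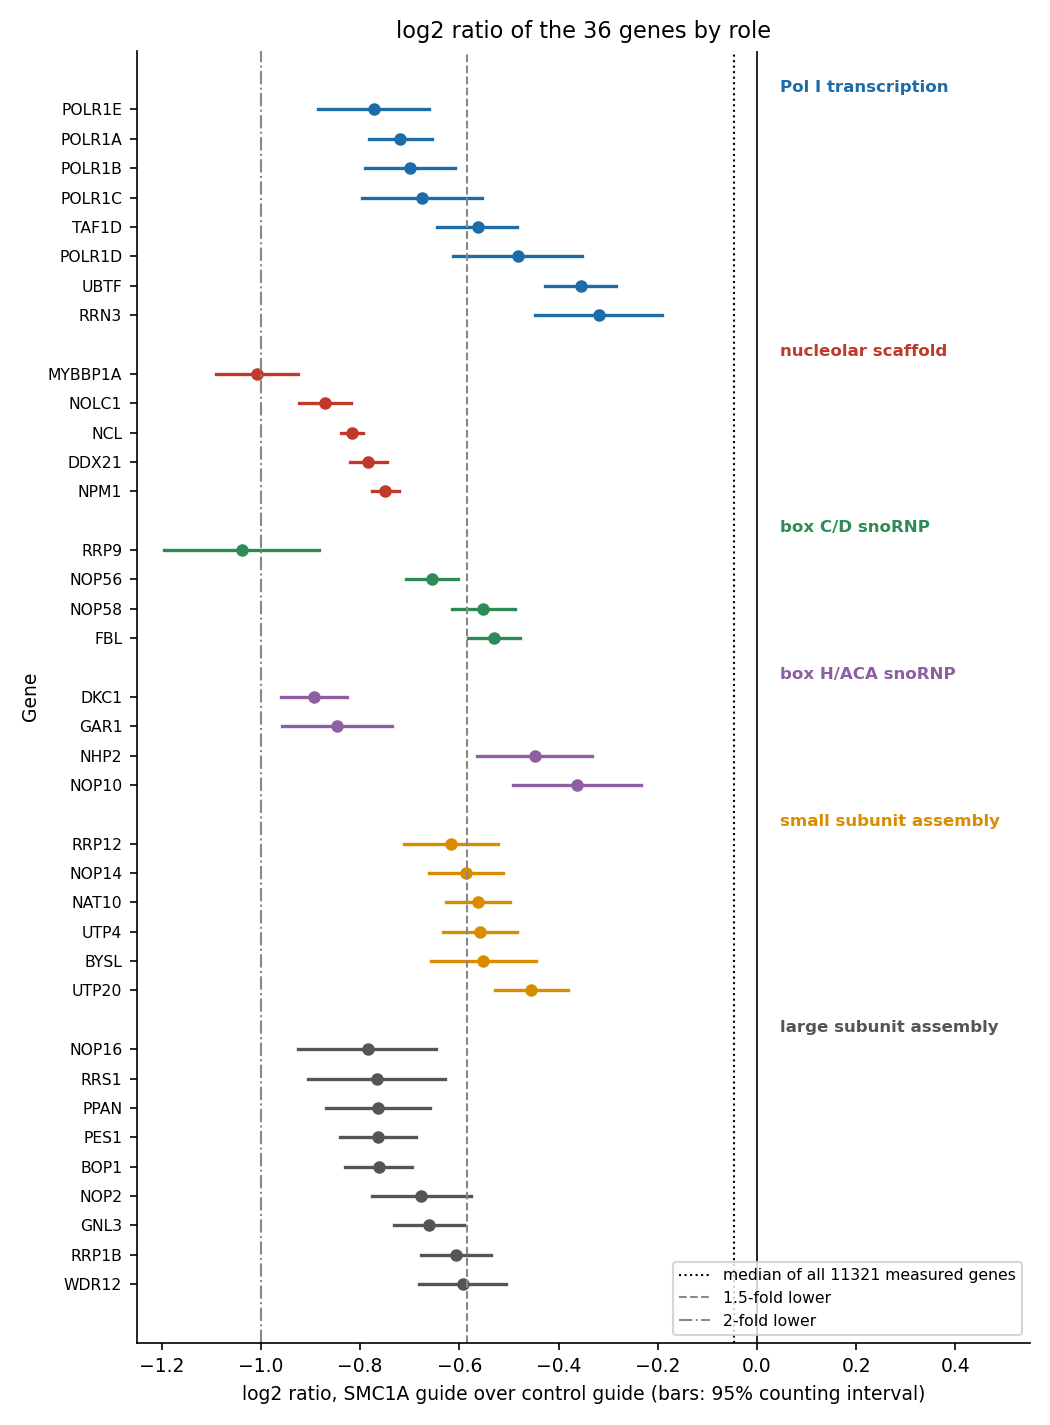
log2 ratio (SMC1A guide over control guide) of each of the 36 genes by role, with bars for the 95% counting interval; the dashed line marks 1.5-fold lower, the dash-dotted line 2-fold lower and the dotted line the median of all measured genes (-0.05). All intervals lie left of 0, the 5 scaffold and 9 large subunit points lie past 1.5-fold, and UBTF, RRN3 and NOP10 lie nearest to 0.

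Abundant nucleolar scaffold and chaperone genes had the lowest median of the 6 roles (-0.82). At least 1.5-fold lower were 5 of 5, against 9.06% of all measured genes. With the trend with level removed 2 of 5 were, against 8.58%. The scaffold median of -0.51 then stood behind those of large subunit assembly (-0.58) and box H/ACA (-0.53). NCL (nucleolin, which binds nascent ribosomal RNA; chromosome 2, 231453531 to 231483641) was at 2609 CPM in the control library and 1481 in the SMC1A library (-0.82, interval -0.84 to -0.79). NPM1 (nucleophosmin, a scaffold of the outer nucleolar layer) was at 1636 and 973 CPM (-0.75). The control library was higher for both, and NCL counts per NPM1 count were 1.59 and 1.52. The RNA helicase gene DDX21 was at 881.0 and 511.9 CPM (-0.78). NOLC1, a snoRNP chaperone, was at 475.2 and 259.7 CPM (-0.87). MYBBP1A, a nucleolar protein named for binding MYB, was at 207.0 and 102.9 CPM (-1.01, interval -1.09 to -0.93), the lowest ratio of this role. NPM1 has 49 rows named as its pseudogenes, which held 528 and 356 counts beside 28704 and 17165 for NPM1 itself.

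Genes of the snoRNP core were lower in both classes, with differences inside each complex. In the box C/D class the methyltransferase gene FBL was at 421.0 and 291.5 CPM (-0.53, interval -0.58 to -0.48). The core proteins NOP56 (441.1 and 280.1 CPM, -0.65) and NOP58 (279.7 and 190.8 CPM, -0.55) were near it. RRP9, which binds the U3 snoRNA needed for small subunit processing, stood apart at 58.1 and 28.3 CPM (-1.04, interval -1.20 to -0.88), on 1020 and 499 counts. Per FBL count there were 0.138 RRP9 counts in the control library and 0.0970 in the SMC1A library (log2 difference -0.51, interval -0.67 to -0.35). For NOP56 per FBL count the log2 difference was -0.12 (interval -0.20 to -0.05), small but beyond counting error. For NOP58 per FBL count the interval was -0.10 to 0.06 around -0.02, within counting error. RRP9 thus differed from FBL by more than NOP56 or NOP58 did.

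The box H/ACA class, whose core is DKC1 with GAR1, NHP2 and NOP10, split in pairs. The pseudouridine synthase gene DKC1 (dyskerin; chromosome X, 154762742 to 154777689) was at 297.3 and 160.1 CPM (-0.89, interval -0.96 to -0.83) and GAR1 at 105.2 and 58.5 CPM (-0.85, -0.96 to -0.74). NHP2 was at 82.7 and 60.6 CPM (-0.45, -0.56 to -0.33) and NOP10 at 63.2 and 49.2 CPM (-0.36, -0.49 to -0.23). The intervals of the former pair do not overlap those of the latter. NHP2 lies opposite RMND5B, which had 650 and 661 counts beside 1451 and 1069 for NHP2. What this overlap brings to the NHP2 ratio was not tested. Without scaling, DKC1 counts per NOP10 count were 4.70 in the control library and 3.26 in the SMC1A library (log2 difference -0.53, interval -0.68 to -0.39), while DKC1 per GAR1 count was 2.83 and 2.74 (-0.05, -0.17 to 0.08). All 4 proteins sit in the same particle, so its mRNAs were not lower in proportion.

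Small subunit assembly genes had the narrowest range of the roles, with 6 ratios between -0.62 and -0.45 (median -0.56). RRP12, a late assembly and export factor, was at 130.4 and 85.0 CPM (-0.62), and NOP14, a processome scaffold, at 208.2 and 138.7 CPM (-0.59). NAT10, the acetyltransferase of ribosomal RNA, was at 270.6 and 183.2 CPM (-0.56). UTP4, an early processome protein (204.2 and 138.6 CPM, -0.56), and BYSL, needed late in small subunit maturation (102.5 and 69.9 CPM, -0.55), were close to it. UTP20, a very large processome protein, was at 200.1 and 145.9 CPM (-0.45). Although 2 of 6 passed 1.5-fold, against 9.06% of all measured genes, all 6 counting intervals overlapped. By library totals 0 of 6 passed, against 5.65%.

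Large subunit assembly genes were lower by more, and 9 of 9 were at least 1.5-fold lower (median -0.76), against 9.06% of all measured genes. By library totals 5 of 9 were, against 5.65%, and with the trend removed 4 of 9, against 8.58%. BOP1, PES1 and WDR12 encode a trimer that acts on the large subunit precursor. BOP1 was at 267.8 and 158 CPM (-0.76), PES1 at 207 and 122.1 (-0.76) and WDR12 at 153.0 and 101.4 (-0.59). BOP1 counts per PES1 count were 1.29 in both libraries, while BOP1 per WDR12 count was 1.75 and 1.56 (log2 difference -0.17, interval -0.28 to -0.06). The assembly factor NOP16 (65.5 and 38.0 CPM, -0.78) and RRS1, which helps to place the small ribosomal RNA of the large subunit (65.6 and 38.6 CPM, -0.77), had the lowest ratios. PPAN, needed early in large subunit maturation, was at 114.4 and 67.4 CPM (-0.76). The methyltransferase gene NOP2 (120.1 and 75.1 CPM, -0.68), the GTPase gene GNL3, also called nucleostemin (234.5 and 148.3 CPM, -0.66), and RRP1B (228.5 and 150.1 CPM, -0.61) followed.

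Some members share their position with other genes. In the annotation 11 of the 36 overlap another measured gene, and the use of strand in counting is not stated in the labels. The 25 that overlap none had a median of -0.70, from -1.04 to -0.36. PPAN shares exons with the readthrough gene PPAN-P2RY11 (106 and 61 counts), and both together gave -0.77 (interval -0.87 to -0.66). NOP14 lies opposite NOP14-AS1, which had 152 and 163 counts beside 3653 and 2446. Small nucleolar RNA genes lie inside 8 of the members on the same strand, among them TAF1D with 8, GNL3 with 6 and NOP56 with 5. These 8 had a median of -0.67 and the other 28 one of -0.65, so the members that carry snoRNAs were not set apart.

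**Figure D3:**
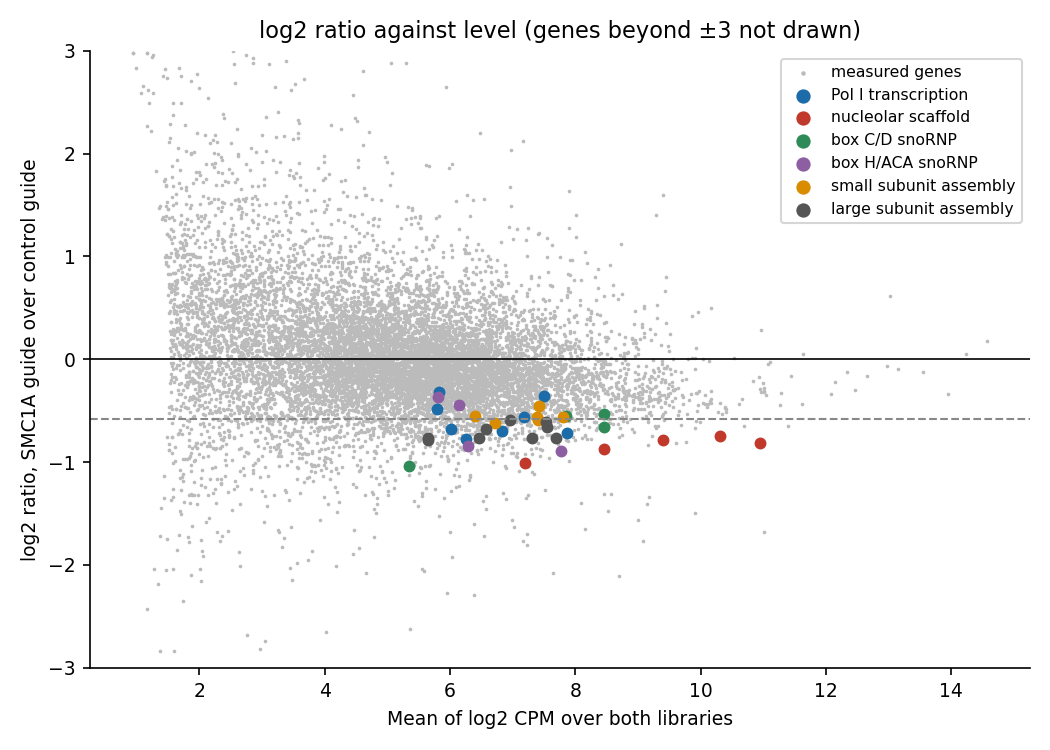
log2 ratio against the mean log2 CPM of both libraries for measured genes (grey; 54 genes beyond 3 in either direction are not drawn) and for the 36 genes by role (colours); the dashed line marks 1.5-fold lower. The coloured points lie in the lower part of the grey cloud at the levels they occupy, from RRP9 at -1.04 to RRN3 at -0.32.

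Other genes of ribosome assembly, listed by function, showed the same direction with smaller medians. Of 51 further small subunit genes 19 were at least 1.5-fold lower and 0 higher (median -0.50). Over all measured genes 9.06% were lower and 12.2% higher by that much. The lowest were PWP2 (59.4 and 28.6 CPM, -1.05) and NOC4L (-0.96), and the highest UTP3 (0.00) and BUD23 (176.9 and 196.4 CPM, 0.15). Of 52 further large subunit genes 25 were at least 1.5-fold lower and 0 higher (median -0.58), from RRP1 (168.8 and 82.0 CPM, -1.04) and NIFK (-0.81) to HEATR3 (-0.09, or 0.04 by library totals) and EFL1 (0.01). By library totals 11 of the 51 and 8 of the 52 passed 1.5-fold, against 5.65% of all measured genes. Among these further genes the larger share past 1.5-fold was thus on the large subunit side by TMM and on the small subunit side by library totals, while among the 36 it was on the large subunit side by both.

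Factors around the core particles were nearer to their control level. The 13 snoRNP assembly genes had a median of -0.35 with 2 at least 1.5-fold lower (0 by library totals), 15.4% against 9.06% of all measured genes. These were NUFIP1 (-0.67) and the ATPase gene RUVBL2 (-0.63), while TGS1 and PHAX were at -0.03 and -0.02 (both 0.10 or 0.11 by library totals). Exosome and RNase MRP genes, which trim and cut the precursor, had a median of -0.31. At least 1.5-fold lower were 4 of 24 (16.7%, against the same 9.06%), among them EXOSC5 (-0.84) and POP1 (-0.83). The RNase MRP protein gene RPP25 was the other way, at 18.4 and 45.4 CPM (1.30, interval 1.11 to 1.49).

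The other RNA polymerases give a comparison. The 7 subunits used by Pol II alone had a median of -0.18 with 0 of 7 past 1.5-fold, from POLR2C at -0.43 to POLR2A at 0.01 and POLR2G at 0.05. The 5 subunits that all 3 polymerases share had a median of -0.38 with 0 of 5 past 1.5-fold, from POLR2H (-0.52) to POLR2L (-0.03, or 0.10 by library totals). Pol III subunits had a median of -0.42 with 4 of 11 at least 1.5-fold lower and 0 higher. Over all measured genes 9.06% were lower, so 0 of 7 and 0 of 5 do not set the Pol II and shared subunits apart. By library totals 2 of the 11 were lower, against 5.65%. Among the members, POLR1A, POLR1B and POLR1E are subunits of Pol I alone, and their ratios of -0.72, -0.70 and -0.77 lie below all 12 of the Pol II and shared subunits, as does that of POLR1G (-0.82). The Pol I subunits POLR1H (-0.50) and POLR1F (-0.28) do not, since POLR2H is lower than both. This difference could not be tested.

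Ribosomal protein genes, the other protein supply of the ribosome, differed less. Of 82 measured cytosolic ribosomal protein genes 80 had a ratio below 0, and 79 a counting interval wholly below 0, so this direction was not particular to the 36. RPL22L1 (-0.92) and RPS29 (-0.67) were at least 1.5-fold lower, 2 of the 82 (median -0.39) against 9.06% of all measured genes. Of 78 mitochondrial ones 14 were (17.9%, median -0.36), with MRPL16 at -1.63. By library totals these counts were 1 and 4, against 5.65% of all measured genes. Long non-coding snoRNA host genes were close to the assembly factors, with 13 of 22 at least 1.5-fold lower (median -0.62). By library totals 5 were, and with the trend removed 8, against 8.58% of all measured genes in the latter setting. SNHG1, for example, had 303.4 and 176.3 CPM (-0.78), while SNHG14 and SNHG11 were higher (0.40 and 0.41, the former with an interval from -0.06 to 0.88). When the trend with level was removed, the median was -0.13 for cytosolic ribosomal protein genes and -0.50 for snoRNA host genes.

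**Figure D4:**
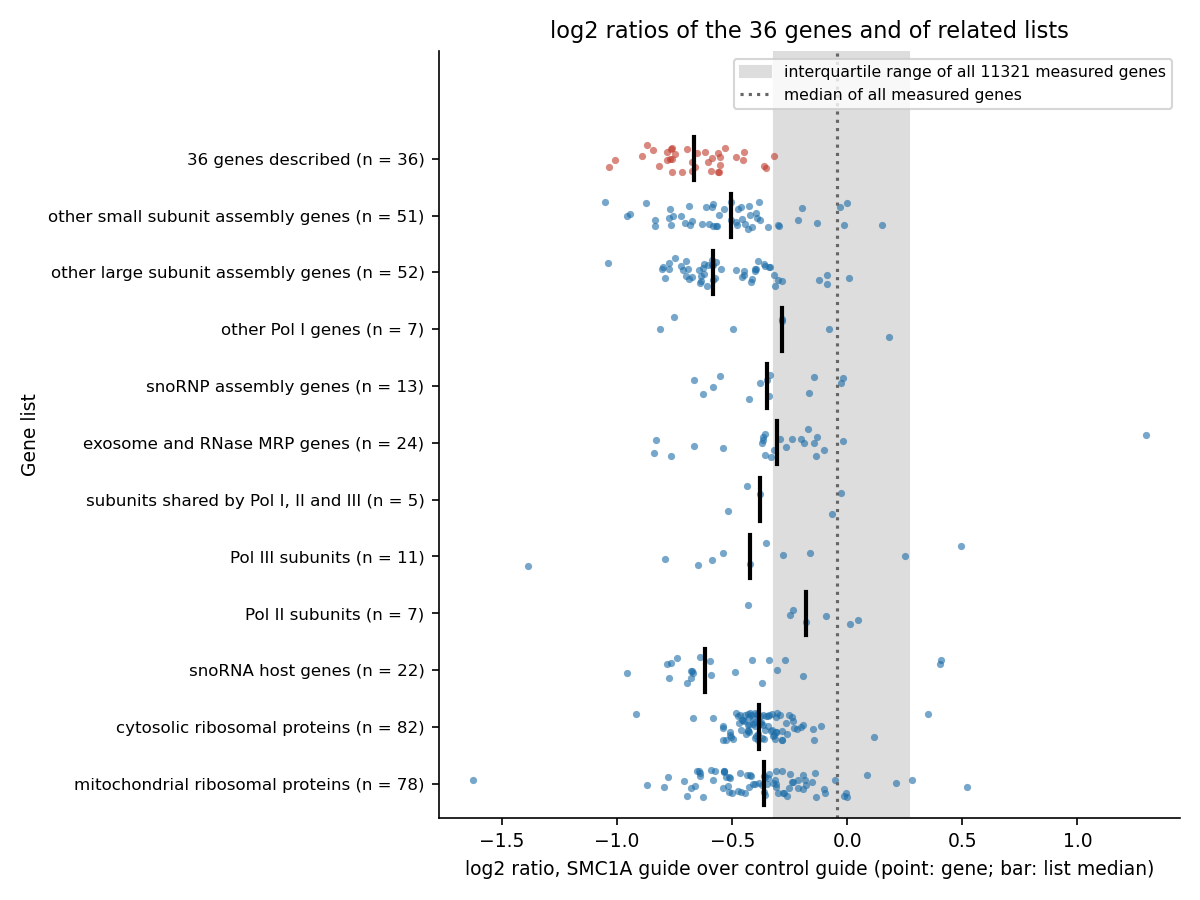
log2 ratio of single genes (points) and list medians (bars) for the 36 genes described and 11 related lists; the grey band is the interquartile range of all 11321 measured genes and the dotted line their median. The 36 genes (median -0.67), the snoRNA host genes (-0.62) and the other large subunit genes (-0.58) have the lowest medians, and the Pol II subunits (-0.18) the highest.

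MYC, the transcription factor known for driving this pathway, was at 610.9 CPM in the control library and 220.3 in the SMC1A library (log2 ratio -1.47, interval -1.53 to -1.42), lower than any of the 36. Its partner MAX was at 62.8 and 41.0 CPM (-0.61, interval -0.75 to -0.48). MXD1, which competes for MAX and represses the same sites, was lower as well, at 30.7 and 10.9 CPM (-1.49), and the MYC relative MYCL was at 4.84 and 2.15 CPM (-1.15). The repressive partners MXD4 and MXD3 were higher, the former with a ratio of 0.59 and the latter at 2.22 and 5.05 CPM (1.16, on 39 and 89 counts). MGA (-0.31), MLXIP (-0.34) and MNT (-0.26) were modestly lower. MXI1 and MLX had intervals across 0. MYCN had 0 counts in both libraries, which allows up to 0.171 CPM in the control library and 0.170 in the SMC1A library. Whether the lower MYC level bears on the 36 genes was not tested.

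**Figure D5:**
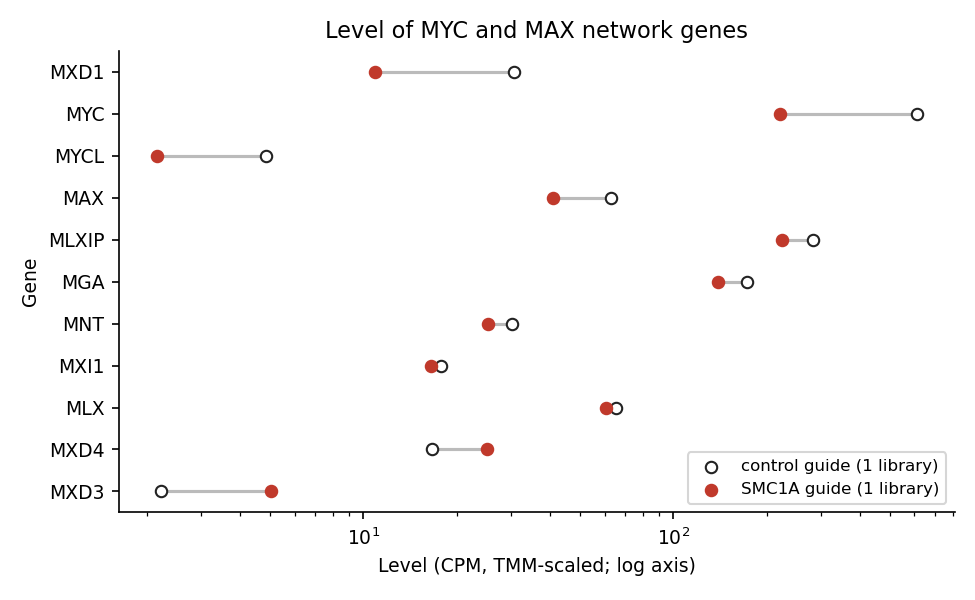
Level of the 11 measured genes of the MYC and MAX network in the control library (open circles) and the SMC1A library (filled circles), in CPM on a log axis, ordered by ratio. MXD1, MYC and MYCL lie furthest to the left of their control level and MXD3 furthest to the right (2.22 and 5.05 CPM).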

How the data were processed

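Estimated counts per gene were deposited by the authors as 1 table for 2 libraries, in whole numbers and not scaled between them. The submitters' processing notes list STAR 2.7.10a, Salmon 1.10.1, DESeq2 1.42.1 and build hg38 (GRCh38), without their roles. No annotation or use of strand is stated. Coordinates, mRNA lengths and gene types came from GENCODE 29. Log2 ratios of CPM were computed with TMM factors (edgeR 4.0.16, R 4.3.3) and a prior count of 1. Intervals are exact (Clopper-Pearson, 95%) for a ratio of counts, and use a normal approximation on the log scale for ratios between genes. They cover counting error only, and reads lacking molecular identifiers can be copies of the same molecule. For a count of 0 the upper limit was set at 3 counts. Ratios and intervals were checked on counts simulated with counting error alone (Poisson), so the check does not cover variation between libraries. Python 3.11.15, numpy 2.4.6, scipy 1.17.1, pandas 2.3.3 and matplotlib 3.10.9 were used. The 36 genes, their 6 roles, the 14 other lists and the motif were chosen with earlier results of these data known. All 36 genes, all measured genes of the Pol I and MYC lists and SMC1A could be named, and of each other list the 2 highest and 2 lowest. Other genes named (TFRC, HBG1, MS4A1, MYCN, PPAN-P2RY11, NOP14-AS1, RNA5-8SN1 and RNA5-8SN2) were chosen after their values were seen. One symbol of the large subunit list had no row. Ribosomal protein lists hold protein-coding genes only.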

Additional observations from a re-analysis of the deposited data

How the results depend on the processing

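The scaling (size factors of DESeq2, totals, upper quartile, or TMM leaving out mitochondrial and globin genes), the trend with level, the prior count (0.25 and 5) and the count minimum (1, 20 and 500) were varied. The ratios of all 36 genes stayed below 0 under each of these. By library totals the median was -0.54, with 15 genes at least 1.5-fold lower, and 0 genes passed 2-fold. With the trend removed the values were -0.49, 10 and 0. By upper quartile 1 gene was at least 2-fold lower. The other settings moved the median by less than counting error and these counts by at most 1.5 times. Count minimums change only the background, since the 36 genes pass all of them. By library totals 32 single ratios, and with the trend removed 26, left their own counting interval. No paired analysis was possible because each guide has 1 library, and for the same reason no library could be left out. Depth limits the 36 genes little, whose fewest counts in a library were 499, but at this depth single ratios near a fold limit cannot be placed on either side of it.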

Other observations

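Pol III, which makes the small ribosomal RNA of the large subunit and transfer RNAs, showed opposite values for a pair of alternative subunits. POLR3G, the form known from stem and cancer cells, was at 30.1 CPM in the control library and 11.5 in the SMC1A library (log2 ratio -1.39, interval -1.63 to -1.16). Its paralog POLR3GL, known from differentiated cells, was at 35.8 and 50.5 CPM (0.49, interval 0.35 to 0.65). The catalytic partner subunit POLR3B was at 38.5 and 45.8 CPM (0.25), and POLR3K at 67.0 and 38.7 CPM (-0.79). POLR3G was thus lower than any of the 36 nucleolar genes, while POLR3GL and POLR3B were higher.

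The product of Pol I was looked for only through rows of the small ribosomal RNA RNA5-8S, whose gene copies are near-identical. RNA5-8SN2 had 41 counts in the control library and 0 in the SMC1A library, and RNA5-8SN1 had 0 and 34. The split of reads between these copies is uncertain, and poly(A) selection removes most ribosomal RNA, so these rows give no level of ribosomal RNA.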
